A study of Mus musculus with 23 samples.

Results

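The cerebellum of Cdr1as knockout mice was compared with the cerebellum of wild type mice across all microRNAs (miRNAs). The members are the 6 libraries labelled cerebellum, 3 from wild type and 3 from Cdr1as knockout C57BL/6 mice, out of 23 libraries in the series. The other 17 libraries come from cortex, hippocampus and olfactory bulb of the same genotypes. Tissue was dissected, total RNA was extracted with TRIZOL, and small RNA libraries were made and sequenced. The labels give no age or sex, and they do not say whether the libraries of a genotype come from separate mice, so p-values here reflect only how far these samples differ from one another, which may be technical. Cdr1as is a long circular RNA and is not counted among miRNAs, so its loss cannot be checked here. In dissected tissue, fewer cells of a type and less RNA per cell cannot be told apart.

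A miRNA is cut from a hairpin precursor whose 5′ and 3′ sides give a 5p and a 3p arm. Usually 1 arm is loaded into Argonaute and guides it to messenger RNAs through its seed, bases 2 to 8, while the other arm, the passenger, is mostly degraded. Cdr1as is expressed in neurons and carries many sites that pair with the seed of miR-7 and a site that pairs extensively with miR-671, which can direct its slicing. The comparison asks which miRNAs of the cerebellum differ when that RNA is absent, and which do not.

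The arms of miR-671 and miR-7 are shown because the genotype comparison turns on them. The sequences are those of RefSeq (GRCm38.p6), written 5′ to 3′ with the seed in capitals.
miR-671-5p: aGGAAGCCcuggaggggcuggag
miR-671-3p: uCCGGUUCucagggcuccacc
miR-7a-5p: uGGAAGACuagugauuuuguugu
miR-7b-5p: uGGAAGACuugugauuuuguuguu
miR-7a-1-3p: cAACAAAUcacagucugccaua
miR-7a-2-3p: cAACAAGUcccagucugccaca
miR-7b-3p: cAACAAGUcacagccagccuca

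Counted from the 5′ end, miR-7a-5p and miR-7b-5p share their seed and differ by A10U over the bases they have in common, so reads could be exchanged between them. The seeds of miR-7a-5p and miR-671-5p differ at 1 base, A7C. The 3p arms do not share the seed of their 5p arms, and miR-7a-2-3p and miR-7b-3p share one with each other. In GRCm38.p6 the miR-671 gene lies on chromosome 5, the miR-7a genes on chromosomes 13 and 7, and the miR-7b gene on chromosome 17.

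Total counts per cerebellum library ran from 6406126 to 11046151, and 911 to 975 of the 1915 names in the tables had at least 1 count in a library. After a filter on low counts, 669 miRNAs were tested, and they held at least 99.991% of the reads of each library. Levels are given as CPM, counts scaled to a common library size with TMM factors, which were between 0.757 and 0.938 in these libraries. The hindbrain miRNA miR-10b-5p, from a Hox gene cluster, stood at 1234 to 1785 CPM in the cerebellum libraries against 74.29 to 423.5 CPM in the libraries of the other regions. The library of wild type replicate 3 lay farthest from the others of its genotype. Its root mean square log2 difference was 0.706 from replicate 1 and 0.681 from replicate 2, which differed from each other by 0.525. Pairs of knockout libraries differed by 0.470 to 0.556, and pairs of unlike genotype by 0.471 to 0.670. The ranges within and across genotypes overlapped.

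Of the 669 miRNAs, 1 passed the threshold, miR-671-5p, which was higher in knockout, and 0 were lower. The test was edgeR's quasi-likelihood test with the Benjamini-Hochberg adjusted p under 0.05, and 0.149% of the miRNAs tested were called. At an unadjusted p under 0.05 there were 13, of which 3 were higher and 10 lower. The 3 libraries of a genotype did not overlap with the other 3 for 47 miRNAs (7.03%). With the replicate number as a block, 4 passed, namely miR-466i-5p and the 5p arms of miR-671, miR-7a and miR-7b. Without the filter on low counts 12 passed: the 4 named for the block, miR-200a-3p, miR-200b-3p, miR-429-3p, miR-141-3p, miR-34c-5p, miR-448-3p and both arms of miR-1298. DESeq2 called 3, which were miR-671-5p, miR-200b-3p and miR-429-3p, and limma-voom called miR-671-5p.

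**Figure D1:**
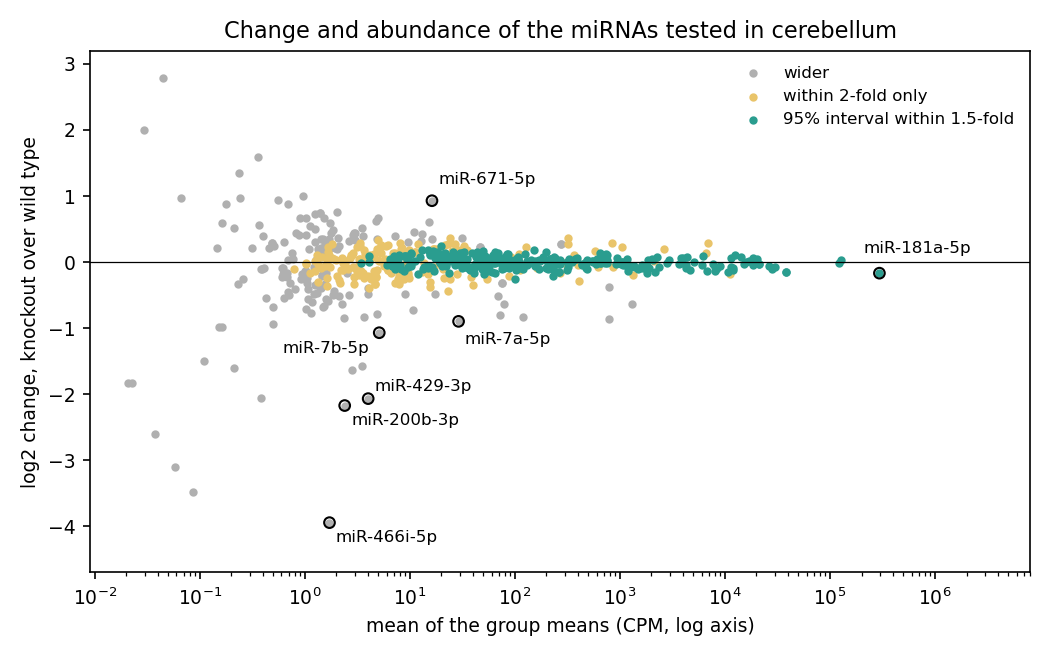
Each point is 1 of the miRNAs tested, with its mean level in CPM on a log x axis and its log2 change in knockout over wild type on the y axis, coloured by whether the 95% interval of the change lies within 1.5-fold, within 2-fold or is wider. MiR-671-5p, the only miRNA past the threshold, lies above the line of no change at a moderate level, as do others that did not pass. The miR-7 guide arms lie below the line, and above 1000 CPM the changes run from -0.63 to 0.29.

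The 5p arm, miR-671-5p, can direct the slicing of Cdr1as and is the less abundant arm of its hairpin. Its level was 11.44, 11.75 and 10.32 CPM in the wild type libraries against 22.01, 23.35 and 18.65 CPM in the knockout libraries, from 83 to 104 and from 132 to 154 counts. All 3 knockout libraries were above all 3 wild type libraries. The log2 change was 0.93 (SE 0.15, 95% interval 0.61 to 1.25, edgeR adjusted p = 0.004355 by Benjamini-Hochberg), which is 1.904-fold. Without wild type replicate 3 it was 0.88 with an edgeR adjusted p of 0.06225, and in a fit on the 6 cerebellum libraries alone it was 0.93 with an adjusted p of 0.174.

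The 3p arm of miR-671 held 79.0, 80.3 and 81.2 CPM in wild type and 84.9, 81.4 and 94.8 CPM in knockout. All 3 knockout values were above the wild type values, by little. The log2 change was 0.12 with a 95% interval of -0.25 to 0.49 (edgeR adjusted p = 1). The test of the difference between the arms is that of their ratio (0.81, limma adjusted p = 0.497), which did not pass.

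MiR-7a-5p, the arm that pairs with Cdr1as and that neurons use to regulate many messenger RNAs, held 38.5, 34.3 and 41.0 CPM in wild type and 23.3, 16.3 and 21.3 CPM in knockout. Each knockout library was below each wild type library. The log2 change was -0.90 (SE 0.25, 95% interval -1.42 to -0.38), which missed the threshold over all miRNAs (edgeR adjusted p = 0.325) and passed with the replicate block (-0.91, edgeR adjusted p = 0.0345) and without the filter on low counts (-0.91, edgeR adjusted p = 0.0009499).

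MiR-7b-5p, with the same seed, held 6.46, 8.36 and 6.09 CPM in wild type and 2.77, 2.65 and 4.36 CPM in knockout, again without overlap. Its log2 change was -1.07 (SE 0.30, 95% interval -1.70 to -0.44, edgeR adjusted p = 0.325, with 0.0399 under the replicate block and 0.00581 without the filter). Added together, the miR-7 seed was carried by 0.00374% ± 0.000422 of the reads in wild type and 0.00203% ± 0.000338 in knockout (SD, n = 3 each). Those shares make the miR-7 seed a scarce one in the cerebellum of both genotypes.

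The 3p arm miR-7a-1-3p, from the hairpin on chromosome 13, was more abundant in the cerebellum than its 5p partner. It held 51.2, 57.9 and 62.8 CPM in wild type and 54.5, 53.4 and 57.0 CPM in knockout, and the knockout values lay within the wild type range. Its log2 change was -0.06 with a 95% interval of -0.35 to 0.24. MiR-7a-2-3p, at 5 to 18 counts a library, had -0.03 with an interval of -0.94 to 0.89, which bounds little.

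MiR-7b-3p held 2.83, 3.05 and 2.36 CPM in wild type and 1.90, 1.42 and 1.94 CPM in knockout, from 8 to 27 counts a library. The groups did not overlap, and the log2 change of -0.63 (95% interval -1.39 to 0.13) did not pass (edgeR adjusted p = 1). Of the 7 arms of miR-671 and miR-7, 1 rose, 0 fell, and 5 had groups that did not overlap, 2 higher and 3 lower in knockout. Over all 669 miRNAs the groups did not overlap for 30 higher (4.48%) and 17 lower (2.54%).

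**Figure D2:**
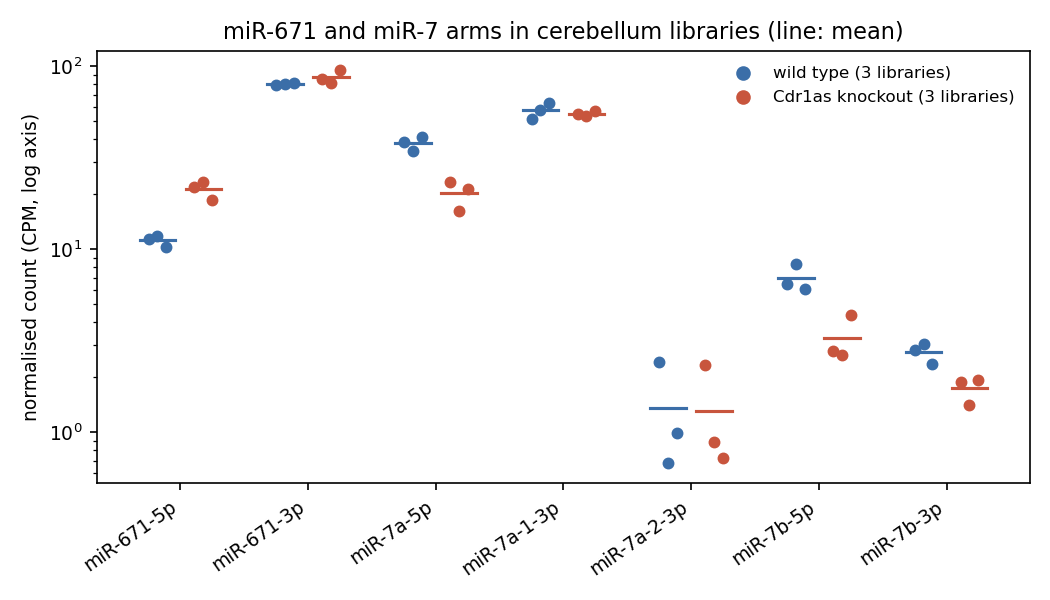
Points are the CPM of each cerebellum library on a log axis for the arms of miR-671 and miR-7, wild type in blue and knockout in red, and lines are group means. The groups do not overlap for the 5p arms, nor for miR-671-3p (79.0 to 94.8 CPM over all libraries) and miR-7b-3p, and they overlap for miR-7a-1-3p (51.2 to 62.8 CPM) and miR-7a-2-3p.

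The other regions were fitted in the same model, with only 2 knockout libraries for hippocampus. In them the log2 change of miR-671-5p was 0.53 for cortex, 0.02 for hippocampus and 0.37 for the olfactory bulb. The cerebellum exceeded their mean by 0.62 (95% interval 0.25 to 0.997, edgeR unadjusted p = 0.00228, adjusted p = 0.642), which did not pass. For miR-7a-5p that difference was 0.23 (-0.37 to 0.83) and for miR-7b-5p 0.20 (-0.52 to 0.92). The genotype effect in the cerebellum differed from the mean of the other regions past the threshold for 0 of 669 miRNAs, with 12 at an unadjusted p under 0.05 in edgeR, and for 0 by DESeq2 or limma-voom. Wild type miR-7a-5p was scarcest in the cerebellum, at 37.96 ± 3.378 CPM, against 96.19 ± 20.36 CPM for cortex, 108.9 ± 27.82 CPM for the olfactory bulb and 139.3 ± 24.51 CPM for hippocampus (SD, n = 3 each). The cerebellum range of 34.34 to 41.03 CPM did not overlap with theirs, which began at 72.87 CPM. The olfactory bulb range (82.06 to 137.6 CPM) overlapped with those of cortex (72.87 to 110.4 CPM) and hippocampus (120.8 to 167.1 CPM), which did not overlap with each other.

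The 2 arms were compared over 220 hairpins with both arms tested. They were classed as more or less abundant by wild type counts, which need not match guide and passenger. By this rule miR-7a-5p stands among the less abundant arms and its 3p arms among the more abundant. The log2 ratio of 5p to 3p counts, with 0.5 added to each, does not depend on library scaling. In wild type the 5p arm was the more abundant in 114 hairpins and the 3p arm in 106. The 222 names of more abundant arms had a median log2 change of -0.0203 and those of the 232 less abundant arms 0.00487, against -0.00328 over all miRNAs tested. Some of these names hold the same counts, so they are not all separate measurements. MiR-467a-3p and miR-467d-3p had equal counts in 6 libraries and stand in different classes. Arms of several loci were summed, so miR-7a-2-3p, at 1.365 CPM in wild type, counts as more abundant. Among less abundant arms 1 rose, miR-671-5p, and among more abundant arms 0 passed. The interquartile range of the changes was between -0.10 and 0.05 for the more abundant arms and between -0.11 and 0.15 for the less abundant arms, whose median wild type level was 9.55 CPM against 142 CPM.

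No arm ratio passed the threshold (limma, Benjamini-Hochberg adjusted p under 0.05, called in 0% of hairpins), with 7 at an unadjusted p under 0.05. The smallest p belonged to miR-671 and miR-7a. The log2 ratio of miR-671 was -2.78, -2.77 and -2.97 in wild type against -1.94, -1.80 and -2.34 in knockout, without overlap. The change was 0.81 (SE 0.25, 95% interval 0.29 to 1.33, limma adjusted p = 0.497). For miR-7a, with its 3p arms summed, the log2 ratio was -0.48, -0.77 and -0.64 in wild type against -1.28, -1.73 and -1.44 in knockout, a change of -0.86 (SE 0.27, 95% interval -1.42 to -0.30, limma adjusted p = 0.497). The ratio of miR-671 was higher and that of miR-7a lower in each knockout library than in each wild type library.

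For miR-7b the log2 arm ratio was 1.17, 1.44 and 1.34 in wild type against 0.53, 0.87 and 1.14 in knockout, with a change of -0.47 and an interval of -1.43 to 0.49. The other hairpins among the 6 with the smallest p were miR-137 (1.76), miR-141 (2.11), miR-544 (0.66) and miR-92b (-0.91), none past the threshold (limma adjusted p between 0.675 and 0.997). The ratio of miR-137, a neuronal miRNA, rests on a 5p arm listed at 0 in 2 of 3 wild type libraries, and it passed without wild type replicate 2 (2.77, limma adjusted p = 0.00279). That of miR-141 rests on a 5p arm with 1 count over the wild type libraries and 2 over the knockout libraries. The groups did not overlap for 18 of 220 ratios (8.18%). The interval of the ratio's change lay within 2-fold for 136 hairpins (61.8%).

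**Figure D3:**
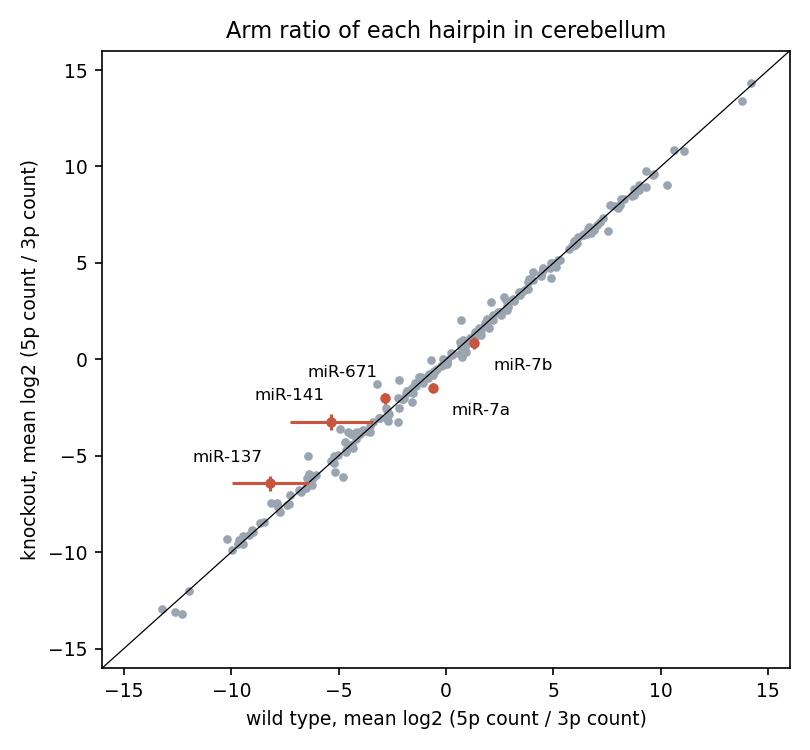
Each point is 1 hairpin, with its mean log2 ratio of 5p to 3p counts in wild type on the x axis and in knockout on the y axis, and bars on the red points are SDs over 3 libraries. Most hairpins lie along the diagonal of equal ratios, miR-671 lies 0.81 above it and miR-7a 0.86 below it. Others lie farther off, among them miR-137 (1.76 above) and miR-141 (2.11 above), also in red, whose 5p arms held few counts. No ratio passed the threshold.

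Which arm was the more abundant differed between genotypes for 5 hairpins, miR-1224, miR-325, miR-339, miR-770 and miR-3069. In each the wild type ratio was between -0.14 and 0.06 on the log2 scale and the groups overlapped. Their arms were near equal in both genotypes.

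The abundant miRNAs of the cerebellum were led by miR-181a-5p, a neuronal miRNA, followed by miR-26a-5p and by miR-9-5p, which acts in neural progenitors and neurons. These 3 took 45.0% to 47.5% of the reads of each library, and the 20 most abundant took 75.7% to 78.3%. The leading sequences are shown by seed, since families with 1 seed hold most of the reads.
miR-181a-5p: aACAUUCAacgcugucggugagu
miR-181c-5p: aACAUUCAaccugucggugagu
miR-26a-5p: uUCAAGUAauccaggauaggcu
miR-9-5p: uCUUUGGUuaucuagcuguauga
let-7f-5p: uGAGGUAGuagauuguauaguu
let-7c-5p: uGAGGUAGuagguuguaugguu
let-7a-5p: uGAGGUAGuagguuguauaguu
miR-30a-5p: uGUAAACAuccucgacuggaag
miR-30c-5p: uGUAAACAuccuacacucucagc
miR-101a-3p: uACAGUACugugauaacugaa
miR-101c: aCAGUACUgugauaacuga

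MiR-101c is contained in bases 2 to 20 of miR-101a-3p, and the counts of the pair agreed within 2% in all 6 libraries, so they share reads. Let-7a-5p differs from let-7c-5p by A19G and from let-7f-5p by G12A, and such pairs may exchange reads. For the pair miR-486a-5p and miR-486b-5p, abundant in red blood cells, all 6 libraries list the same count for either name.

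MiR-181a-5p held 271400, 306500 and 362700 CPM in wild type and 249900, 276600 and 310700 CPM in knockout. The groups overlapped, and the log2 change of -0.17 had a 95% interval of -0.41 to 0.07. MiR-26a-5p held 103000, 137500 and 138200 CPM in wild type against 128400, 116600 and 142700 CPM in knockout, a change of 0.03 (-0.23 to 0.30). The lowest of the 6 values was a wild type one and the highest a knockout one.

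MiR-9-5p held 110500, 134200 and 127000 CPM in wild type and 123300, 122100 and 122500 CPM in knockout, a change of -0.02 (-0.24 to 0.21). Its knockout libraries lay within the wild type range. The neuron-specific miR-124-3p, a repressor of non-neuronal genes, was at 26830 ± 3989 CPM in wild type and 25670 ± 2921 in knockout (SD, n = 3 each), with -0.06 (-0.30 to 0.17).

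Of the 20 most abundant miRNAs, 0 passed the threshold, 7 had a change above 0 and 13 below, and the changes ran from -0.17 to 0.07 on the log2 scale. The sign of 13 of the 20 turned under at least 1 alternative of processing or with a library left out. The 95% interval lay within 1.5-fold in either direction for 20 of 20. The 20 names include miR-486a-5p with miR-486b-5p and miR-101a-3p with miR-101c, whose counts are equal or nearly so. These tallies and the share of reads above thus cover fewer than 20 separate measurements. The groups did not overlap for 1 of the 20, against 47 of all 669 miRNAs (7.03%). It was miR-434-3p of the imprinted Dlk1-Dio3 region, at 17930 ± 492 CPM in wild type and 18790 ± 235 in knockout (SD, n = 3 each). Its change was 0.07 (-0.16 to 0.29), and in every library it was between 17360 and 18960 CPM.

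**Figure D4:**
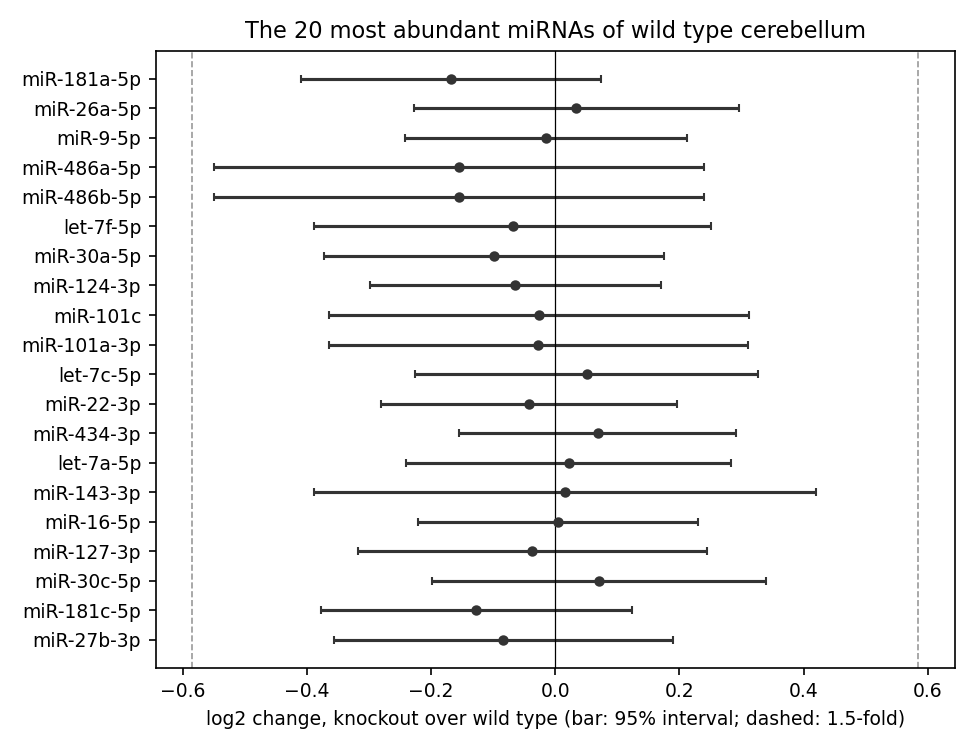
Points are log2 changes in knockout over wild type of the 20 most abundant miRNAs, ordered by wild type level, with 95% intervals from edgeR, and dashed lines mark 1.5-fold. Every interval includes 0 and lies inside the dashed lines, and miR-486a-5p and miR-486b-5p reach lowest, at -0.55.

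Over all 669 miRNAs the interval of the change lay within 2-fold for 494 (73.8%) and within 1.5-fold for 305 (45.6%). The latter held at least 95.7% of the reads of each cerebellum library. The precision followed abundance. Above 1000 CPM the interval was within 1.5-fold for 69 of 77 miRNAs, and between 100 and 1000 CPM for 81 of 101. Between 10 and 100 CPM it was for 132 of 196, between 1 and 10 CPM for 23 of 234, and under 1 CPM for 0 of 61. For most miRNAs under 10 CPM the interval thus included changes of 1.5-fold or more.

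Replicate spread, as the SD of log2 CPM over 3 libraries, had a median of 0.28 in wild type and 0.31 in knockout between 1 and 10 CPM. Above 1000 CPM the medians were 0.16 and 0.09. There the wild type SD was the larger for 65 of 77 miRNAs, and among the 20 most abundant for 19. These SDs depend on the TMM factors, which ran from 0.757 to 0.938 in wild type and 0.811 to 0.897 in knockout. As shares of reads, without those factors, the SD was 0.582% in wild type and 0.584% in knockout for miR-9-5p. For the miR-26 seed it was 0.693% and 0.729%, for the miR-181 seed 1.55% and 1.47%, for miR-22-3p 0.0813% and 0.0323%. The part of scaling in the wider wild type spread was not tested. Wild type replicate 3 had the highest value of miR-181a-5p, miR-124-3p, miR-486a-5p, let-7f-5p and miR-10b-5p among all 6 libraries. It also had the lowest TMM factor of the 6 (0.757), which raises its CPM.

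The largest spread among miRNAs of at least 100 CPM was in miR-1298-5p and miR-448-3p, which lie on the X chromosome in introns of Htr2c, a serotonin receptor gene that the choroid plexus expresses strongly. MiR-1298-5p held 1310, 1706 and 27.7 CPM in wild type and 245, 925 and 497 CPM in knockout. MiR-448-3p held 209, 248 and 4.48 CPM in wild type and 34.3, 149 and 78.1 CPM in knockout. In both, wild type replicate 3 was the lowest of all libraries and knockout replicate 1 the lowest of its genotype.

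MiR-34c-5p, a miRNA of multiciliated cells, went with them in wild type at 1905, 2073 and 796 CPM, and held 698, 1502 and 878 CPM in knockout. The SD of its log2 level was 0.76 in wild type and 0.57 in knockout. MiR-146b-5p (SD 0.53 in wild type) and miR-100-5p (0.41 in wild type and 0.52 in knockout) were also among the most variable. In knockout so was miR-182-5p (0.58).

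The choroid plexus and ciliated epithelium list had 0 of 9 members past the threshold, with 8 of 9 below 0 and a median log2 change of -0.49 against -0.00328 over all miRNAs. Its summed level was 11198 to 18782 CPM in wild type and 10405 to 14404 CPM in knockout, most of it miR-204-5p at 11970 ± 2248 and 10590 ± 1181 CPM (SD, n = 3 each). The groups overlapped for all 9. The change of miR-1298-5p was -0.87 (95% interval -2.72 to 0.98), and it was -1.44 without wild type replicate 3, -0.27 without wild type replicate 2, -0.51 without knockout replicate 1, -1.45 without knockout replicate 2 and -0.16 with the replicate block. With limma-voom the direction turned for miR-1298-5p (0.28) and miR-448-3p (0.24). Without the filter on low counts, 3 of the 9 passed in edgeR, namely miR-1298-5p (-0.93, adjusted p = 0.001231), miR-448-3p (-0.89, adjusted p = 0.006721) and miR-34c-5p (-0.68, adjusted p = 0.007561). The part of such tissue in these values was not tested.

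The miR-200 family has 2 seeds and is known from epithelial cells and the olfactory bulb. Its members are shown because they were among the lowest p after miR-671-5p.
miR-200b-3p: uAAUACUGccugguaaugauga
miR-429-3p: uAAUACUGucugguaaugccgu
miR-200c-3p: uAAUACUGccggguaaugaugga
miR-200a-3p: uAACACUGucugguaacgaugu
miR-141-3p: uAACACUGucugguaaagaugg

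MiR-200b-3p held 2.02, 7.68 and 1.99 CPM in wild type and 0.437, 1.42 and 0.848 CPM in knockout, from 15, 68 and 16 counts against 3, 8 and 7. MiR-429-3p held 3.23, 13.2 and 2.86 CPM in wild type and 1.02, 2.30 and 1.45 CPM in knockout. The groups did not overlap for these or for miR-141-3p, as for 17 of all 669 miRNAs (2.54%) that were lower in knockout. Wild type replicate 2 was the highest library for all 5 members. The log2 changes were -2.17 for miR-200b-3p, -2.07 for miR-429-3p, -2.06 for miR-200c-3p, -1.63 for miR-141-3p and -1.57 for miR-200a-3p, none past the threshold (edgeR adjusted p between 0.325 and 1).

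Without wild type replicate 2 these changes were -1.19 for miR-200b-3p, -0.96 for miR-429-3p, -1.08 for miR-200c-3p, -0.81 for miR-141-3p and -0.29 for miR-200a-3p. DESeq2 called miR-200b-3p (-2.19, adjusted p = 0.00489) and miR-429-3p (-2.06, adjusted p = 0.00841). Without the filter, edgeR called miR-429-3p, miR-200b-3p, miR-200a-3p and miR-141-3p (adjusted p between 1.2e-13 and 3.195e-07) and not miR-200c-3p (adjusted p = 0.3828). All 5 are scarce here: wild type olfactory bulb held 8073 to 9378 CPM of miR-200b-3p. The miR-183 cluster is known from sensory cells. Its most abundant member here, miR-182-5p, held 814, 1021 and 830 CPM in wild type and 507, 1070 and 950 CPM in knockout, a change of -0.08 (95% interval -0.81 to 0.66). The highest of these libraries was knockout replicate 2 and the lowest knockout replicate 1. For miR-183-5p the values were 48.73, 69.14 and 59.81 CPM in wild type against 37.91, 51.12 and 59.08 CPM in knockout, highest in wild type replicate 2, with a change of -0.26 (-0.94 to 0.41). Its change differed from the mean of the other regions by 1.39 (edgeR adjusted p = 0.642), where it was -4.13 for cortex, -0.81 for hippocampus and -0.02 for the olfactory bulb.

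**Figure D5:**
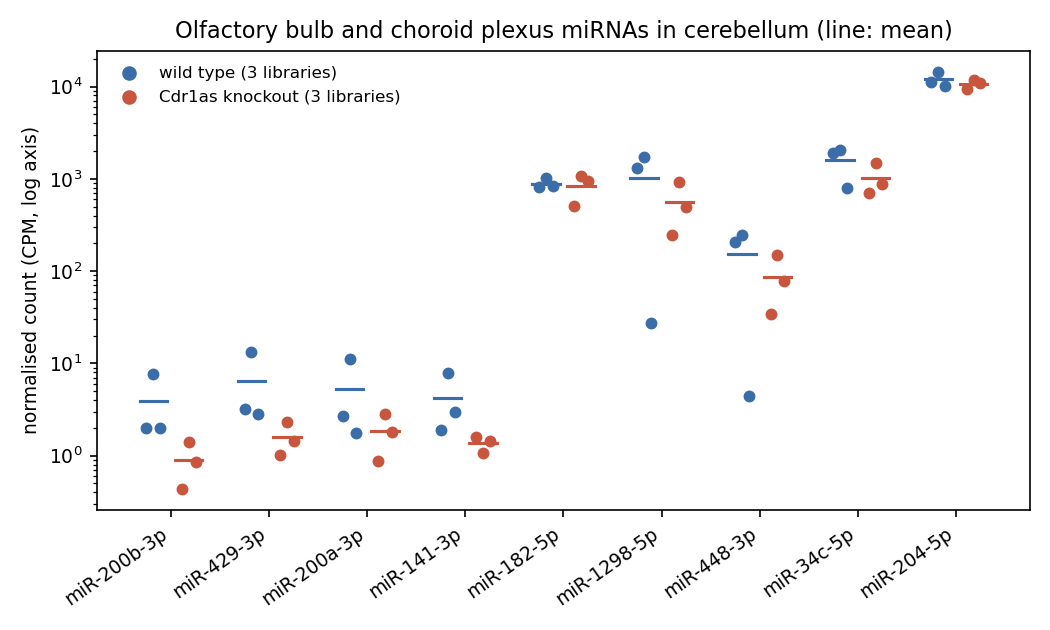
Points are the CPM of each cerebellum library on a log axis for miRNAs of the olfactory bulb (miR-200b-3p to miR-182-5p) and of choroid plexus and ciliated cells (miR-1298-5p to miR-204-5p), and lines are group means. Wild type replicate 2 is the high blue point of the miR-200 members, and wild type replicate 3 is the low blue point of miR-1298-5p (27.7 CPM) and miR-448-3p (4.48 CPM).

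MiR-344c-3p was at 3.10, 4.07 and 4.10 CPM in wild type and 5.39, 4.95 and 6.90 CPM in knockout. The groups did not overlap, and the change of 0.62 (SE 0.21, edgeR adjusted p = 0.800) did not pass. MiR-466i-5p had 45, 1 and 29 counts in wild type and 2, 0 and 2 in knockout. The groups overlapped through wild type replicate 2. Its change of -3.95 (SE 1.61, edgeR adjusted p = 1) passed with the replicate block (-4.05, edgeR adjusted p = 0.0345).

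The other lists of cell type miRNAs held no member past the threshold. The 14 neuron miRNAs had a median of -0.03, from -0.18 to 0.29, and miR-128-3p was at 11200 ± 582 CPM in wild type and 11700 ± 318 in knockout (SD, n = 3 each). The 3p arms miR-129-1-3p (0.27, 95% interval -0.29 to 0.82) and miR-129-2-3p (0.29, -0.26 to 0.83) were higher in 3 of 3 knockout libraries without passing, beside -0.16 (-0.38 to 0.06) for their partner miR-129-5p. Over all 669 miRNAs, 30 (4.48%) were higher in knockout without overlap. For miR-129-2-3p the gap was narrow, with 879 CPM in knockout replicate 2 against 871.1 CPM in wild type replicate 2. The 9 let-7 members, which restrain growth and rise as neurons mature, ran from -0.11 to 0.08, with a summed level of 78682 to 100020 CPM in wild type and 84860 to 93320 CPM in knockout.

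The 5 oligodendrocyte miRNAs had a median of -0.10, and the myelination miRNA miR-338-3p was at 1532 ± 89.8 CPM in wild type and 1430 ± 47.1 in knockout (SD, n = 3 each). The 6 microglia and leukocyte miRNAs had a median of 0.03 and the 4 endothelial and mural ones 0.02. Vascular miR-126a-3p, at 747.9 ± 18.04 and 756.6 ± 49.14 CPM (SD, n = 3 each), had an interval of -0.17 to 0.20. The 5 red blood cell names had a median of -0.02, and erythroid miR-451a was at 179.7 ± 18.96 and 189 ± 13.43 CPM (SD, n = 3 each). Of the hindbrain list, 3 of 5 were tested, and miR-10b-5p had a difference of -0.20 (-0.92 to 0.52).

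The miR-200 and miR-183 list had 15 tested members, of which 0 passed and 2 had no count in the cerebellum. Its median of -1.57 was the value of miR-200a-3p. Members below it included miR-200b-5p, with 2 counts in wild type and 0 in knockout. The most abundant members, miR-182-5p and miR-183-5p, changed by -0.08 and -0.26, so the median does not describe the whole list. Wild type replicate 2 was the highest library for the miR-200 members shown above. Cdr1 lies on the X chromosome. Of the 11 tested miRNAs in the list of X chromosome clusters 0 passed, with a median of -0.01 and a range of -0.60 to 0.31. The lowest of these 11, miR-504-5p, had groups that did not overlap, at 1.401 ± 0.255 and 0.9175 ± 0.09111 CPM (SD, n = 3 each), and did not pass. That list leaves out miR-1298-5p (-0.87) and miR-448-3p (-0.82), which also lie on the X chromosome and were placed in the choroid plexus list.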

How the data were processed

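For each library the authors deposited a table of unnormalized counts by miRNA name. The submitters' processing notes name build mm9. How reads were aligned, counted and shared among names was not given in the sources used here, so counts of near-identical miRNAs can be shared. Total counts of the 6 cerebellum libraries are given above, and the labels mention no molecular identifiers, so reads are not independent molecules. Within a genotype, the chi-square statistic per degree of freedom between 2 libraries ran from 52.6 to 190, so no library was a duplicate.

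The count model was edgeR 4.0.16 under R 4.3.3: filterByExpr over the 8 groups (minimum count 10, minimum total 15), TMM factors, and 1 quasi-likelihood model with a mean per group over all 23 libraries (15 residual degrees of freedom). Tests are two-sided. Benjamini-Hochberg adjustment ran over 669 miRNAs, with a threshold of 0.05. An SE is the absolute log2 change over the square root of F, and 95% intervals use the t distribution. Arm ratios were fitted with limma 3.58.1 with a trend on the less abundant arm, and arms of several loci were summed. DESeq2 1.42.0, limma-voom, other scalings, no filter, each cerebellum library left out, and a replicate block were alternatives. The scripts were tested on simulated data. RefSeq sequences matched 1623 of 1915 names.

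The block paired libraries by the replicate number in the labels, which do not say that a number marks a common batch or litter. Deviations of same-numbered cerebellum libraries of the 2 genotypes correlated at 0.116, 0.374 and 0.103. This agreement is weak: wild type replicate 3 correlated more with knockout replicate 1 (0.1945) than with knockout replicate 3. The members and lists were chosen with earlier results of these data known. Named miRNAs are the miR-671 and miR-7 arms, the 20 most abundant, the 10 and the 6 hairpins of smallest p, the 5 most variable per genotype of at least 100 CPM, and members of fixed lists of at least 10 CPM. Those named outside this rule, such as miR-504-5p and hairpins of near-equal arms, were named after their values were seen.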

Additional observations from a re-analysis of the deposited data

How the results depend on the processing

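The count of 1 miRNA past the threshold was 12 without the filter on low counts, 4 with the replicate block, 3 with DESeq2 and 0 in the fit on the 6 cerebellum libraries; the cause was not tested. It ranged from 0 (without wild type replicate 3) to 1 when 1 library was left out. The difference from the other regions gave 3 without the filter, against 0 in the main analysis and in the other alternatives. Arm ratios past the threshold ranged from 0 to 1 (miR-137, without wild type replicate 2) when a library was left out, and the replicate block gave 0. The counts within 2-fold ranged from 452 to 509 and within 1.5-fold from 264 to 339 over 12 alternatives. The block changed no other call than those given above. Its pairing rests on replicate numbers whose meaning the labels do not give, and same-numbered libraries correlated weakly. The sign turned under at least 1 alternative for 37 of 89 named miRNAs and ratios, none of them past the threshold in the main analysis. With library size only it turned for miR-7a-1-3p (0.003378), miR-7a-2-3p (0.0211), miR-9-5p (0.04753), miR-124-3p (0.0002589), miR-101c (0.03194), miR-101a-3p (0.03158), miR-22-3p (0.01685), miR-127-3p (0.02634), miR-153-3p (0.008644), miR-132-3p (0.03155), let-7g-5p (0.04556) and miR-144-5p (0.04662). With upper quartile scaling it turned for miR-7a-2-3p (0.0004761), miR-9-5p (0.00342) and miR-132-3p (0.01008). With RLE scaling it turned for miR-143-3p (-0.006306), miR-16-5p (-0.01692), miR-126a-3p (-0.006108) and miR-211-5p (-0.009986). With no filter on low counts it turned for miR-143-3p (-0.003331), miR-16-5p (-0.01612), miR-126a-3p (-0.004237) and miR-211-5p (-0.01117). With DESeq2 it turned for miR-143-3p (-0.006306), miR-16-5p (-0.01693), miR-126a-3p (-0.005723) and miR-211-5p (-0.009604). With limma-voom it turned for miR-1298-5p (0.2815) and miR-448-3p (0.2351). With 1 library left out, the log2 changes that turned sign spanned these ranges. The range was, for miR-7a-1-3p from -0.1344 to 0.01147, miR-7a-2-3p from -0.7331 to 0.6428, miR-26a-5p from -0.09325 to 0.1046 and miR-9-5p from -0.09115 to 0.04643. It was for let-7f-5p from -0.1531 to 0.01474, miR-124-3p from -0.1736 to 0.03918, miR-101c from -0.09562 to 0.0415 and miR-101a-3p from -0.096 to 0.04122. It was for let-7c-5p from -0.02738 to 0.1157, miR-22-3p from -0.116 to 0.01294, let-7a-5p from -0.09999 to 0.1013 and miR-143-3p from -0.1112 to 0.1562. It was for miR-16-5p from -0.05489 to 0.04535, miR-127-3p from -0.09126 to 0.07308, miR-27b-3p from -0.1934 to 0.04212 and miR-100-5p from -0.1075 to 0.4749. It was for miR-182-5p from -0.288 to 0.1851, miR-9-3p from -0.03899 to 0.09968, miR-137-3p from -0.288 to 0.1273 and miR-153-3p from -0.086 to 0.001645. It was for miR-218-5p from -0.1773 to 0.06023, miR-132-3p from -0.1222 to 0.05043, let-7b-5p from -0.08368 to 0.1035 and let-7d-5p from -0.00872 to 0.148. It was for let-7g-5p from -0.167 to 0.07942, miR-10a-5p from -0.2891 to 0.03384, miR-142a-5p from -0.1008 to 0.2194 and miR-146a-5p from -0.4538 to 0.0116. It was for miR-144-3p from -0.1281 to 0.3537, miR-144-5p from -0.1733 to 0.0983, miR-126a-3p from -0.03846 to 0.0498 and miR-126a-5p from -0.1861 to 0.01767. It was for miR-211-5p from -0.03214 to 0.05603, miR-322-3p from -0.2294 to 0.001285 and miR-351-5p from -0.04652 to 0.2114. Scaling moved the median of all miRNAs to between -0.03 and 0.05. Under all 14 alternatives miR-671-5p stayed between 0.86 and 1.02, miR-7a-5p between -1.01 and -0.77 and miR-7b-5p between -1.36 and -0.92. Under 10 CPM most intervals were wider than 1.5-fold; what part of this is depth was not tested.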

Other observations

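Grouped by seed, the reads of names with a RefSeq sequence were led by the same families in both genotypes. The miR-181 seed held 27.9% ± 1.55 of the reads in wild type and 25.9% ± 1.47 in knockout (SD, n = 3 each). The let-7 seed, carried by 11 names, held 7.48% ± 0.100 and 7.74% ± 0.262, and the miR-30 seed 4.26% ± 0.151 and 4.28% ± 0.236 (SD, n = 3 each). The miR-16 seed, shared with miR-195a-5p and miR-497a-5p, held 1.69% ± 0.126 and 1.79% ± 0.0647 (SD, n = 3 each). These shares are descriptions over the 1623 names with a sequence and were not tested. Those names held at least 85.97% of the reads of each cerebellum library. MiR-486a-5p, miR-486b-5p and miR-124-3p, among the 20 most abundant, had no sequence and are left out of the grouping.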
